A study of Mus musculus with 18 samples.

Results

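The genes of branched-chain amino acid (BCAA) catabolism were examined in adipocyte RNA from mice with raised or lost IRF3, an interferon-regulatory transcription factor. The 10 genes, chosen by name as enzymes and regulators of BCAA breakdown, were Bcat2, Bckdha, Bckdhb, Dbt, Dld, Ppm1k, Ivd, Mccc1, Hibch and Pcca, out of 33440 genes quantified, and all 10 passed the filter on low counts in every comparison. The rule used names alone, although the genes were proposed with earlier results of these data known.

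RNA was sequenced in 2 experiments on C57BL/6 mice, each with its own WT libraries. In the first, adipocytes were differentiated in culture from the stromal vascular fraction (SVF) of inguinal fat (iWAT) of IRF3-2D mice aged 4–6 weeks, which carry a Cre-dependent, constitutively active Irf3 allele. On day 6 the cultures received an adeno-associated virus, either AAV-GFP for WT or AAV-GFP-Cre for FI3OE, and 3 libraries of each were made on day 8. The IRF3-2D allele, the GFP vector and rosiglitazone, a PPARγ agonist in the medium, were thus common to both of these groups. In the second, ribosome-bound RNA was captured by translating ribosome affinity purification (TRAP) from epididymal fat (eWAT) of Ad-NuTRAP mice (WT, 6 libraries) and FI3KO-Ad-NuTRAP mice (FI3KO, 6 libraries). Both TRAP groups carried the NuTRAP tag in adipocytes and had been fed a high-fat diet (HFD) for 8 weeks at thermoneutrality. The Irf3 deletion of FI3KO mice is specific to adipocytes, so other cells of the fat pad retain IRF3. Replicates were labelled biological, but the labels do not say whether libraries came from separate animals or cultures, so p-values measure the spread between these libraries.

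BCAAs (leucine, isoleucine and valine) are broken down in mitochondria. The mitochondrial transaminase BCAT2 removes the amino group reversibly, and the branched-chain keto acid dehydrogenase (BCKDH) complex then commits the carbon skeleton to oxidation. The complex holds a decarboxylase of alpha and beta subunits (Bckdha, Bckdhb), a transacylase core (Dbt) and dihydrolipoamide dehydrogenase (Dld), which also serves the pyruvate and 2-oxoglutarate dehydrogenases. The kinase encoded by Bckdk phosphorylates the alpha subunit and turns the complex off, and the phosphatase encoded by Ppm1k reverses this. Past the complex, the leucine branch runs through isovaleryl-CoA dehydrogenase (Ivd) and methylcrotonyl-CoA carboxylase (Mccc1, its biotin-carrying subunit), the valine branch through hydroxyisobutyryl-CoA hydrolase (Hibch), and propionyl-CoA from valine and isoleucine is carboxylated by the enzyme whose alpha subunit is Pcca. White adipocytes induce this pathway as they differentiate.

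All 10 are protein-coding genes in the GENCODE annotation of GRCm38. Bcat2 (chr7:45570153-45589711, plus strand) and Bckdha (chr7:25629946-25658981, minus strand) share a chromosome, as do Dbt (chr3:116513070-116549981, plus strand) and Mccc1 (chr3:35959312-36000678, minus strand). The others are Hibch (chr1:52844929-52920986, plus strand), Ivd (chr2:118861954-118882909, plus strand), Ppm1k (chr6:57506502-57535468, minus strand), Bckdhb (chr9:83925145-84124240, plus strand), Dld (chr12:31331277-31351453, minus strand) and Pcca (chr14:122534324-122891100, plus strand).

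The promoters of 3 members are shown because Bcat2 had the largest difference in FI3OE cells, Ivd the largest in FI3KO TRAP and Bckdhb a difference in both. RefSeq start sites (GRCm38.p6) gave windows of 300 bases, 250 before and 50 after the start, for 9 of the 10 members, 12 windows in all. Dbt had no entry. Capitals mark every match, on either strand, to the CCAAT box (CCAAT) or the nuclear receptor half-site (AGGTCA).
Bcat2, chr7:45569903-45570202, plus strand: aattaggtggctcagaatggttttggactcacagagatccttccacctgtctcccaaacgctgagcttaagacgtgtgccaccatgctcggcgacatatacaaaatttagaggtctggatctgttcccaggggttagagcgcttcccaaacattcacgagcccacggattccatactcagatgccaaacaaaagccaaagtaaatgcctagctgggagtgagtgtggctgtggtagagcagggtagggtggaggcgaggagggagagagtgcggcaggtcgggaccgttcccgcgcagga
Bckdhb, chr9:83924887-83925186, plus strand: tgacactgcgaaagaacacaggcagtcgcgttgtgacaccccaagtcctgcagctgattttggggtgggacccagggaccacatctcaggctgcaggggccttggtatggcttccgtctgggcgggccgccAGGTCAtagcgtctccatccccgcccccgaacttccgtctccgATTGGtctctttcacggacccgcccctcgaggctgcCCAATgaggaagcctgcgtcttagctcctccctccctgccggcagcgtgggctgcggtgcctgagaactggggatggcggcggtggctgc
Ivd, chr2:118861744-118862043, plus strand: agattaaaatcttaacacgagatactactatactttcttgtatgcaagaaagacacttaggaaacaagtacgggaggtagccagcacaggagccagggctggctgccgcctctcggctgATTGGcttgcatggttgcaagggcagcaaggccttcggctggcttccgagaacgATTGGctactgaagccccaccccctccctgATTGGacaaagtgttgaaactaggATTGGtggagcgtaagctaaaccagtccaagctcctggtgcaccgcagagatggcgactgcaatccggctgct
The Ivd window held 4 matches to CCAAT, all in reverse complement, the first base of each lying 131, 77, 47 and 23 bases before the start. The printed Bckdhb window held 1 match to CCAAT in each orientation and 1 half-site, and the printed Bcat2 window held neither motif. CCAAT occurred in 8 of the 12 member windows and in 37.41% of 32851 windows in the genome, and AGGTCA in 4 of the 12 and in 16.26%. An IRF-type motif, searched as GAAANNGAAA on both strands, occurred in 0 of the 12 and in 3.44% of all windows, and the E-box CACGTG in 0 of the 12 and in 7.15%. The loose NF-kB form GGGNNNNNCC, which is not capitalised, occurred in 5 of the 12 and in 50.79%, and it can overlap GC-rich stretches of any kind. A match is only a run of letters, and its lack in a window of this length says nothing about binding.

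The libraries were checked before the members were compared. Depth was 21541334 to 36932452 estimated reads in the SVF experiment and 25259869 to 40490283 in TRAP. Irf3 rose from 57.1 ± 0.627 CPM in WT SVF-derived adipocytes to 94.9 ± 5.69 CPM in FI3OE (SD, n = 3 each). In TRAP, Irf3 was 20.1 ± 2.14 CPM in WT and 15.8 ± 2.50 CPM in FI3KO (SD, n = 6 each), and the transcript Irf3-202 had 0 reads in all 6 FI3KO libraries and 163.6 to 388.1 reads in WT. Other protein-coding transcripts kept reads in FI3KO, with 81.7 to 132.9 for Irf3-213 (0 to 175.4 in WT) and 89.9 to 175.3 for the short Irf3-211 (0 to 7.6 in WT). Summed over transcripts, Irf3 was at 44.4 ± 3.43 TPM in WT and 69.7 ± 14.5 TPM in FI3KO (SD). Adipocyte markers were abundant in every group. The 10 of them summed to 11960 to 12030 CPM in WT SVF-derived adipocytes, 11110 to 11260 CPM in FI3OE, 35350 to 40160 CPM in WT TRAP and 33010 to 36010 CPM in FI3KO TRAP. The SVF cultures also held 10 macrophage markers summing to 2145 to 2293 CPM in WT and 2048 to 2078 CPM in FI3OE, and 8 preadipocyte and fibroblast markers summing to 8119 to 8455 CPM in WT and 8754 to 9095 CPM in FI3OE. In bulk RNA of this kind, fewer cells of a type and less RNA per cell cannot be told apart. Among the TRAP libraries, replicates 1 and 2 of each genotype stood apart from replicates 3 to 6, although WT ranges overlapped. Chi-square per gene was 2.57 between WT replicates 1 and 2, 81.0 to 142.1 between them and the other WT libraries and 8.96 to 137.5 among those others, and in FI3KO 38.2, 121 to 291.4 and 18.1 to 92.9. The labels give no batch, so the TRAP differences of the members and other named genes are given below for each set of replicates as well.

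**Figure D1:**
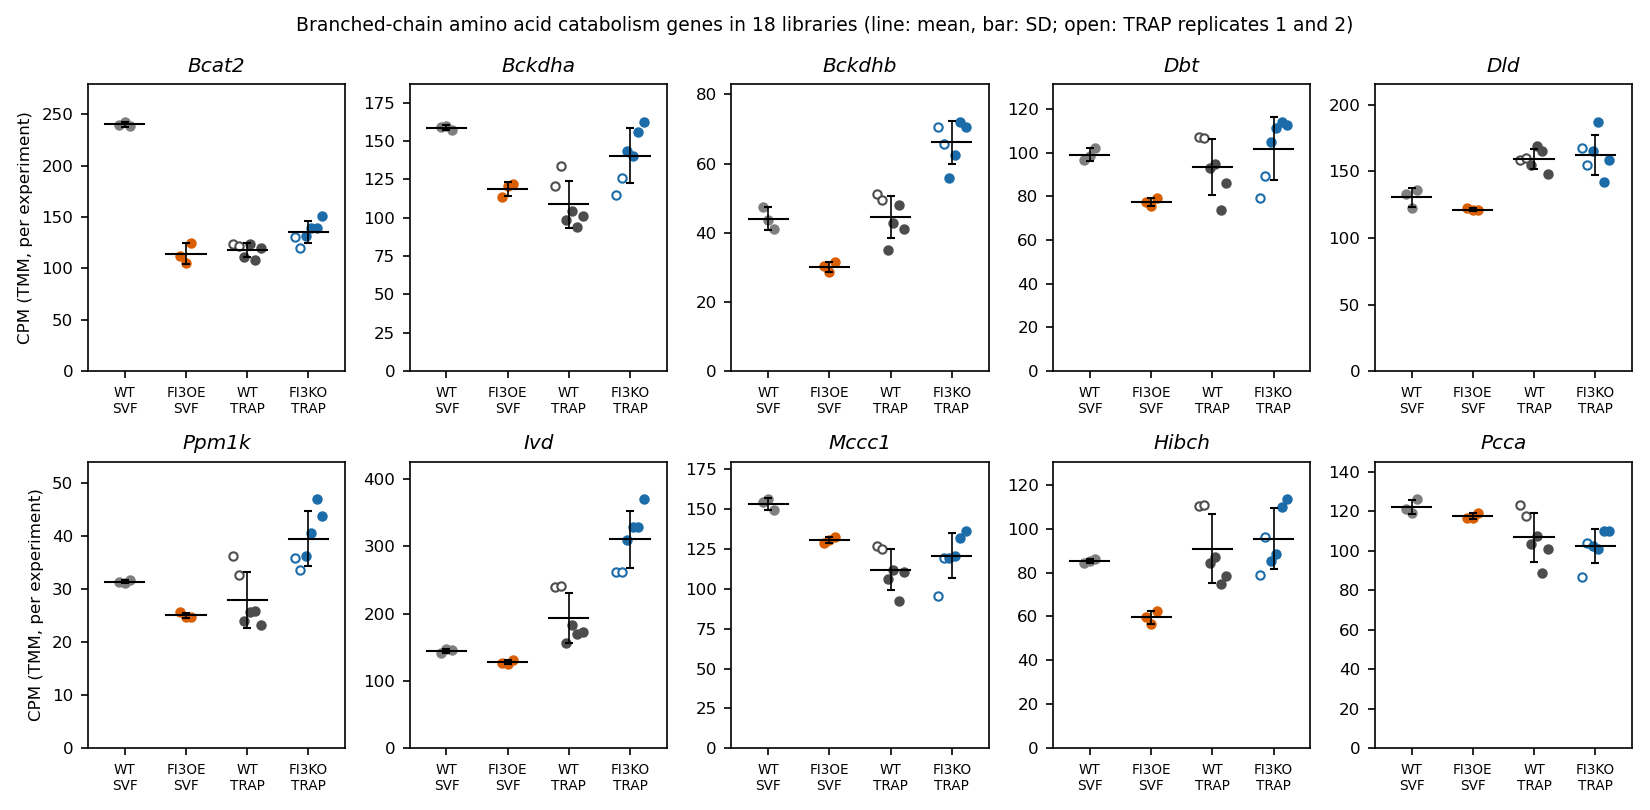
TMM-normalised CPM (y axis, from 0, scaled within each experiment) of the 10 members in each of 18 libraries, by group (x axis), where lines are means, bars are SD and open points are TRAP replicates 1 and 2. Bcat2 lay at 238.3 to 242.7 CPM in WT SVF-derived adipocytes and at 105.7 to 125.2 CPM in FI3OE, and Ivd lay at 156.4 to 240.3 CPM in WT TRAP and at 262.4 to 370.0 CPM in FI3KO.

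The SVF comparison asked which BCAA genes differ when IRF3 is made constitutively active in cultured adipocytes. Expression of 8 of the 10 members was lower in FI3OE than in WT and that of 0 was higher, at an adjusted p of at most 0.05 in edgeR's quasi-likelihood test. Across all 16105 genes tested, 16.8% were called lower. The log2 fold change was negative for all 10 members, with a median of -0.34, beside -0.0048 over all genes. At an unadjusted p under 0.05, 9 members were lower and 0 higher (21.6% of all genes were lower), and DESeq2 also called 8 lower and 0 higher (13.7% lower). With the study's fold cutoff (absolute log2 fold change of at least 1), which 3.62% of genes met in either direction, 1 member remained, Bcat2.

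Bcat2, the transaminase that starts the pathway in mitochondria, differed most. WT libraries held 240.0, 242.7 and 238.3 CPM and FI3OE libraries 112.3, 105.7 and 125.2 CPM. Every FI3OE value was thus well below every WT value, a 2.10-fold difference (log2 fold change -1.07, SE 0.055, adjusted p = 5.54e-08 in edgeR). The log2 fold change of Bcat2 stayed between -1.14 and -1.02 under 16 alternatives. Bcat1, the cytosolic transaminase, was low in these cells and fell from 24.8 ± 0.794 to 21.6 ± 1.43 CPM (SD, n = 3 each), with an edgeR log2 fold change of -0.20 (adjusted p = 0.026), a call that was lost without FI3OE replicate 3 (-0.14), WT replicate 2 (-0.19) or WT replicate 3 (-0.18). Slc25a44, which carries BCAAs into mitochondria, was at 124.2 ± 4.15 CPM in WT and 125.3 ± 0.916 CPM in FI3OE (log2 fold change 0.01, SE 0.038, SD for n = 3 each).

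Of the 4 genes of the BCKDH complex, 3 fell. Bckdhb, the beta subunit of the decarboxylase, was at 47.6, 43.7 and 41.1 CPM in WT and at 30.4, 28.6 and 31.4 CPM in FI3OE (log2 fold change -0.55, SE 0.061, adjusted p = 3.08e-05 in edgeR). Bckdha, the alpha subunit, was at 159.1, 159.9 and 157.1 CPM in WT and at 113.3, 120.8 and 121.7 CPM in FI3OE (log2 fold change -0.42, SE 0.040, adjusted p = 8.23e-06 in edgeR). The groups did not overlap for either subunit. Dbt, the transacylase core, was at 96.6, 98.4 and 102.2 CPM in WT and at 77.5, 75.6 and 79.1 CPM in FI3OE (log2 fold change -0.36, SE 0.037, adjusted p = 1.91e-05 in edgeR). Dld, the subunit shared with other complexes, missed the threshold. Its WT libraries held 133.0, 122.6 and 135.9 CPM and its FI3OE libraries 122.4, 120.8 and 120.8 CPM, a log2 fold change of -0.11 (SE 0.043, adjusted p = 0.078 in edgeR). The FI3OE values lay just under the lowest WT value, and without WT replicate 2 Dld was called (-0.15, adjusted p = 0.019 in edgeR). The 6 genes specific to the sister pyruvate and 2-oxoglutarate dehydrogenase complexes did not move together, with 2 higher, 2 lower and 2 not called (median log2 fold change 0.06).

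Ppm1k, the phosphatase that activates the complex, fell from 31.4, 31.1 and 31.7 CPM to 25.6, 24.7 and 24.7 CPM (log2 fold change -0.33, SE 0.048, adjusted p = 0.00022 in edgeR), again without overlap. Bckdk, the opposing kinase, was at 51.7 ± 1.89 CPM in WT and 47.5 ± 3.36 CPM in FI3OE (SD, n = 3 each), with an edgeR log2 fold change of -0.12 that missed the threshold (adjusted p = 0.11) and passed it without FI3OE replicate 2 (-0.18, adjusted p = 0.013). The ratio of Ppm1k to Bckdk reads was 0.626, 0.579 and 0.620 in WT and 0.557, 0.481 and 0.546 in FI3OE. The log2 ratio was lower by 3 against 3 non-overlapping values (difference -0.21, two-sided exact permutation p = 0.1, which is the smallest that 3 against 3 libraries can give).

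Past the complex, the genes of the valine and leucine branches fell. Hibch was at 84.2, 85.2 and 86.3 CPM in WT and at 60.0, 56.4 and 62.4 CPM in FI3OE (log2 fold change -0.52, SE 0.043, adjusted p = 3.12e-06 in edgeR). Mccc1 was at 154.3, 156.2 and 149.2 CPM in WT and at 128.9, 130.7 and 132.3 CPM in FI3OE (log2 fold change -0.23, SE 0.037, adjusted p = 0.00045 in edgeR). Ivd was at 141.6, 147.0 and 145.5 CPM in WT and at 126.5, 125.3 and 131.0 CPM in FI3OE (log2 fold change -0.18, SE 0.037, adjusted p = 0.0027 in edgeR). These groups did not overlap, although the Ivd difference was 1.13-fold. Pcca, which serves the shared propionyl-CoA step, was at 121.2, 119.2 and 126.2 CPM in WT and at 116.8, 116.5 and 119.4 CPM in FI3OE, which overlapped (log2 fold change -0.06, SE 0.037, adjusted p = 0.27 in edgeR).

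Of 20 other genes of the pathway, 2 rose, 6 fell and 12 were not called, with a median log2 fold change of -0.05. Aldh6a1, the methylmalonate-semialdehyde dehydrogenase that follows Hibch in the valine branch, fell from 473.0 ± 5.51 to 298.4 ± 11.4 CPM (log2 fold change -0.66, adjusted p = 1.29e-07 in edgeR, SD for n = 3 each). Pccb, the partner subunit of Pcca, fell from 109.4 ± 1.42 to 75.7 ± 1.51 CPM (log2 fold change -0.53, adjusted p = 4.08e-07 in edgeR), so the subunits of propionyl-CoA carboxylase had unequal differences. Acad8, isobutyryl-CoA dehydrogenase of the valine branch, rose from 30.8 ± 0.261 to 40.0 ± 0.616 CPM (log2 fold change 0.38, adjusted p = 3.85e-05 in edgeR). The remaining genes named by rule were Abat (-0.33), Oxct1 (-0.26) and Mmaa (-0.25), all lower on the log2 scale at adjusted p of 0.023, 0.00072 and 0.045 in edgeR. The call of Abat was lost without any 1 of the WT replicates (-0.35 to -0.31) and that of Mmaa without FI3OE replicate 1 or 3 or WT replicate 1 or 2 (-0.24 to -0.19). Abat encodes GABA transaminase, Oxct1 the enzyme that activates ketone bodies and Mmaa a chaperone of methylmalonyl-CoA mutase. Of 14 TCA cycle genes, 2 rose and 5 fell (median -0.09). Klf15, a transcription factor known to raise BCAA catabolic genes in other tissues, fell from 71.7 ± 3.97 to 49.2 ± 3.92 CPM (log2 fold change -0.54, adjusted p = 3.07e-05 in edgeR), and Ppargc1a, a coactivator of mitochondrial genes, from 19.2 ± 1.33 to 16.6 ± 1.11 CPM (log2 fold change -0.21, adjusted p = 0.048 in edgeR, SD for n = 3 each). The other 2 regulators were not called, with log2 fold changes of 0.02 for Pparg and -0.39 for Esrra (adjusted p = 0.69 and 0.48 in edgeR).

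Adipocyte markers went in both directions, with more of them lower than higher. Of 10, 6 fell and 2 rose (median log2 fold change -0.19), while macrophage markers had 3 of 10 lower and 2 higher (median 0.01) and preadipocyte and fibroblast markers 2 of 8 lower and 2 higher (median 0.08). Their part in the members' differences was not tested. When all 18 libraries were filtered, normalised and fitted together, 3 members were called lower (adjusted p up to 0.042 for Bcat2, Bckdhb and Hibch) beside 3.57% of all genes lower, and each of the other normalizations, filters, tests and left-out libraries tried called 6 to 9. The count of 6 came with a length offset, where the calls of Ppm1k and Ivd were lost.

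**Figure D2:**
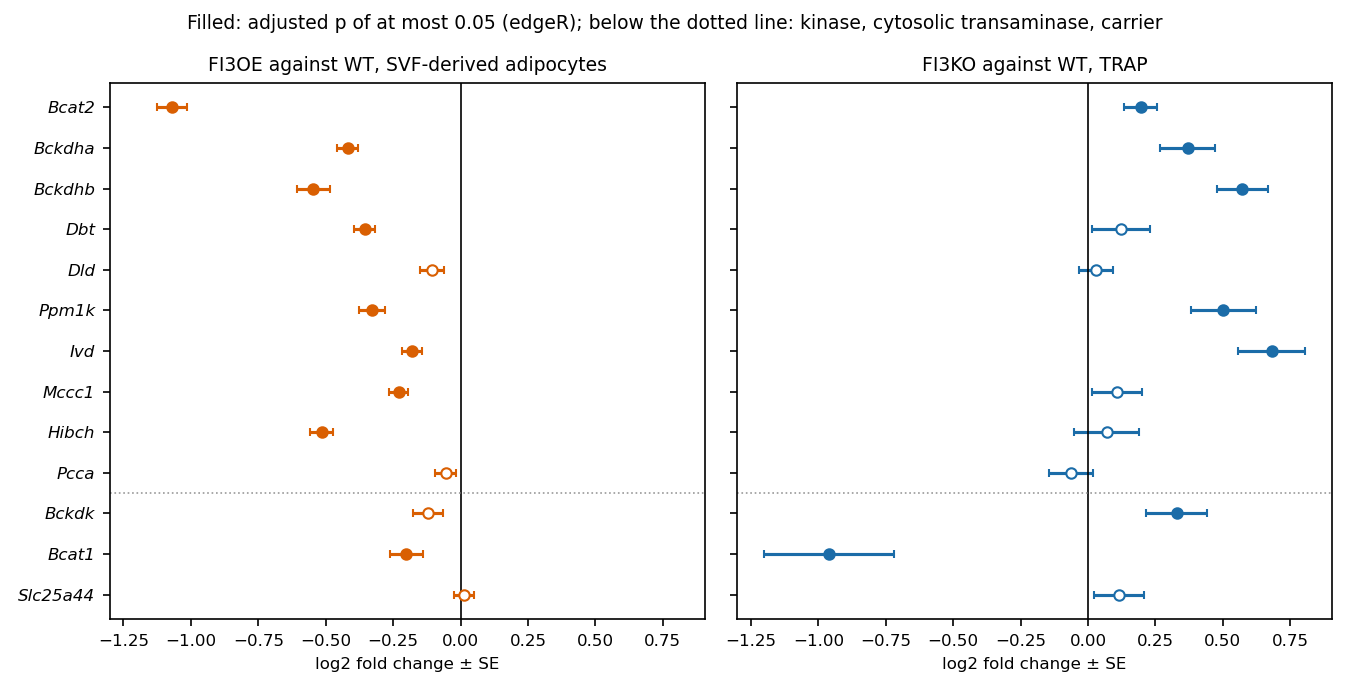
Log2 fold change ± SE (x axis) of the 10 members and, below the dotted line, of Bckdk, Bcat1 and Slc25a44 (y axis), in FI3OE against WT SVF-derived adipocytes (left) and in FI3KO against WT TRAP (right), where filled points have an adjusted p of at most 0.05 in edgeR. The 10 members lie below 0 on the left, from -1.07 for Bcat2 to -0.06 for Pcca, and 9 of them lie above 0 on the right, up to 0.68 for Ivd.

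The TRAP comparison asked which BCAA genes differ on adipocyte ribosomes when Irf3 is lost during HFD feeding. With all 12 libraries, 5 members were higher in FI3KO than in WT and 0 were lower at an adjusted p of at most 0.05 in edgeR. Across all 13624 genes tested, 19.1% were called higher. At an unadjusted p under 0.05 the counts were also 5 and 0 (24.5% of all genes were higher), as they were by DESeq2 (16% higher). The median log2 fold change of the members was 0.16, beside 0.02 over all genes. No member met the study's fold cutoff, which 6.61% of genes met in either direction. The 5 genes called higher (Bcat2, Bckdha, Bckdhb, Ppm1k and Ivd) had each been called lower in FI3OE cells, where 8 of the 10 were. The share of all genes called in both experiments in these directions was not counted, so this overlap is not read as particular to the members. The experiments share no library. With a replicate block in the TRAP fit, 3 members (Bckdhb, Ivd and Ppm1k) were called higher, beside 1766 of 13624 genes. Bcat2 and Bckdha were then not called (adjusted p = 0.063 in edgeR), nor were Bckdk, Bcat1 and Pccb, whose calls without the block are given below.

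Ivd, the first dehydrogenase of the leucine branch after the complex, differed most. In WT it ranged from 156.4 to 240.3 CPM (median 178.0), and in FI3KO from 262.4 to 370.0 CPM (median 319.1). All 6 FI3KO libraries were above all 6 WT libraries, a 1.60-fold difference (log2 fold change 0.68, SE 0.12, adjusted p = 0.0013 in edgeR). WT replicates 1 and 2 were the highest of their group, at 239.2 and 240.3 CPM, and FI3KO replicates 1 and 2 the lowest of theirs, at 262.4 and 262.5 CPM. In replicates 3 to 6 alone the log2 fold change was 0.97 (SE 0.073, adjusted p = 4.33e-06 in edgeR), and in replicates 1 and 2 alone 0.14 (SE 0.060, adjusted p = 0.20).

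Among the 5 called members, Bckdhb differed least between the sets of replicates. It ranged from 34.9 to 51.1 CPM in WT (median 45.4) and from 55.7 to 72.1 CPM in FI3KO (median 68.1), with no overlap (log2 fold change 0.57, SE 0.094, adjusted p = 0.00075 in edgeR). Its log2 fold change was 0.65 (SE 0.11) in replicates 3 to 6 and 0.44 (SE 0.082) in replicates 1 and 2, where the adjusted p was 0.052 in edgeR. Bckdha ranged from 93.8 to 133.6 CPM in WT (median 102.7) and from 115.0 to 162.4 CPM in FI3KO (median 141.7), a log2 fold change of 0.37 (SE 0.10, adjusted p = 0.013 in edgeR). These groups overlapped, with WT replicates 1 and 2 at 120.8 and 133.6 CPM, the highest of their group, and FI3KO replicates 1 and 2 at 115.0 and 125.6 CPM, the lowest of theirs. Its log2 fold change was 0.60 (SE 0.066) in replicates 3 to 6 and -0.07 (SE 0.082) in replicates 1 and 2.

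The other subunits of the complex were not called. Dbt ranged from 73.6 to 107.3 CPM in WT and from 79.4 to 114.1 CPM in FI3KO (log2 fold change 0.12, SE 0.11, adjusted p = 0.40 in edgeR). In replicates 3 to 6 it was higher in FI3KO by 0.35 on the log2 scale (SE 0.079, adjusted p = 0.0042 in edgeR), and in replicates 1 and 2 the log2 fold change was -0.34 (SE 0.078, adjusted p = 0.071). Dld ranged from 147.9 to 169.0 CPM in WT and from 142.2 to 187.2 CPM in FI3KO, a log2 fold change of 0.03 (SE 0.064), with 0.04 and 0.03 in the respective sets. The sister complexes had 2 of 6 genes higher and 0 lower, with 4 higher in replicates 3 to 6 and 0 in replicates 1 and 2.

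Ppm1k ranged from 23.2 to 36.2 CPM in WT (median 25.7) and from 33.5 to 46.9 CPM in FI3KO (median 38.4), a log2 fold change of 0.50 (SE 0.12, adjusted p = 0.0064 in edgeR). WT replicate 1, at 36.2 CPM, lay within the FI3KO range, and the other 5 WT libraries lay below every FI3KO library. The log2 fold change was 0.77 (SE 0.084) in replicates 3 to 6 and 0.02 (SE 0.099) in replicates 1 and 2. Its opposing kinase Bckdk also rose, from 40.3 ± 6.27 to 50.6 ± 6.93 CPM (log2 fold change 0.33, adjusted p = 0.035 in edgeR, SD for n = 6 each). Bckdk had a log2 fold change of 0.56 in replicates 3 to 6 and -0.13 in replicates 1 and 2. Its call was lost without any 1 of FI3KO replicates 3 to 6 or WT replicates 4 to 6 (log2 fold change 0.27 to 0.34, adjusted p = 0.052 to 0.086 in edgeR). The Ppm1k to Bckdk read ratio was 0.544 to 0.762 in WT and 0.656 to 0.872 in FI3KO, and the groups overlapped (difference in mean log2 ratio 0.18, two-sided exact permutation p = 0.087, adjusted over the 2 ratio tests 0.1). Without FI3KO replicate 3 the difference was 0.23 (exact permutation p = 0.019) and without WT replicate 3 it was 0.11 (exact permutation p = 0.17), while replicates 3 to 6 alone gave 0.20 (exact permutation p = 0.2) and replicates 1 and 2 alone 0.15 (exact permutation p = 0.67).

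Bcat2 had the smallest of the 5 called differences. It ranged from 107.9 to 124.0 CPM in WT (median 120.8) and from 119.7 to 151.2 CPM in FI3KO (median 135.3), and 5 of 6 FI3KO libraries were above all WT libraries (log2 fold change 0.19, SE 0.061, adjusted p = 0.024 in edgeR). The log2 fold change of Bcat2 was 0.28 (SE 0.066, adjusted p = 0.0054 in edgeR) in replicates 3 to 6 and 0.03 (SE 0.077, adjusted p = 0.80) in replicates 1 and 2. Over 26 alternatives its adjusted p ranged from 0.0054 to 0.80, and 18 called it, with the call lost without FI3KO replicate 5 or 6 or WT replicate 3 or 5 (log2 fold change 0.15 to 0.18, adjusted p = 0.052 to 0.068 in edgeR). Bcat1, the cytosolic form, went the other way, from 42.3 ± 14.7 CPM in WT to 21.7 ± 5.19 CPM in FI3KO (log2 fold change -0.96, adjusted p = 0.0078 in edgeR, SD for n = 6 each). WT replicates 3 to 6 held 50.7 to 53.1 CPM of Bcat1 and WT replicates 1 and 2 held 24.0 and 22.7 CPM, within the range of the FI3KO libraries (15.3 to 27.8 CPM). Replicates 3 to 6 alone gave Bcat1 a log2 fold change of -1.45, and replicates 1 and 2 alone 0.24 (adjusted p = 0.14 in edgeR). Slc25a44 was at 79.3 ± 9.30 CPM in WT and 85.8 ± 10.2 CPM in FI3KO (log2 fold change 0.12, adjusted p = 0.35 in edgeR, SD for n = 6 each), with 0.24 in replicates 3 to 6 and -0.14 in replicates 1 and 2.

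The remaining members overlapped widely between genotypes. Mccc1 ranged from 92.4 to 126.8 CPM in WT and from 95.8 to 136.4 CPM in FI3KO (log2 fold change 0.11, SE 0.092). Hibch ranged from 74.7 to 110.6 CPM in WT and from 78.7 to 113.4 CPM in FI3KO (log2 fold change 0.07, SE 0.12). Pcca ranged from 88.8 to 123.2 CPM in WT and from 86.8 to 109.9 CPM in FI3KO (log2 fold change -0.06, SE 0.081). Adjusted p in edgeR was 0.38, 0.68 and 0.58 for these genes. In replicates 3 to 6, Mccc1 (0.28, adjusted p = 0.012) and Hibch (0.29, adjusted p = 0.034) were called higher by edgeR, while Pcca was not (0.08, adjusted p = 0.34). In replicates 1 and 2 the log2 fold changes were -0.22 for Mccc1, -0.33 for Hibch and -0.33 for Pcca.

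The FI3KO difference itself differed between the sets of replicates. The sets were told apart by these same libraries, so the p-values of this difference are not those of a split set in advance. By an interaction term in edgeR its signed value was more positive in replicates 3 to 6 than in replicates 1 and 2 for 7 of the 10 members and more negative for 0, beside 12.8% of 13624 genes more positive. The interaction was 0.84 for Ivd, 0.75 for Ppm1k, 0.69 for Dbt, 0.68 for Bckdha, 0.63 for Hibch, 0.50 for Mccc1 and 0.42 for Pcca on the log2 scale. Bcat2 (0.25, adjusted p = 0.098), Bckdhb (0.21, adjusted p = 0.39) and Dld (0.02, adjusted p = 0.93) missed the threshold in edgeR. Leaving out FI3KO replicate 1, WT replicate 1 or WT replicate 2 each lowered the count from 7 to 4. Over all genes, the number more positive also fell, from 1743 to 1355, 1055 and 1022 in the same order. Replicates 3 to 6 alone gave 8 members higher and 0 lower, all but Dld and Pcca, beside 25.7% of 13692 genes higher. Replicates 1 and 2 alone gave 0 in either direction by edgeR, where 3.56% of 14040 genes were called. At an unadjusted p under 0.05 the same fit gave 1 member higher and 3 lower, beside 29.1% of genes in either direction.

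Markers of other cells moved with this pattern. Macrophage markers summed to 61.0 to 84.4 CPM in WT replicates 3 to 6, 32.6 to 33.3 CPM in WT replicates 1 and 2, 31.6 to 39.3 CPM in FI3KO replicates 1 and 2 and 11.7 to 15.0 CPM in FI3KO replicates 3 to 6. Preadipocyte and fibroblast markers summed to 1012 to 1529, 569.4 to 578.5, 522.5 to 614.9 and 211.0 to 329.0 CPM in the same order. Col1a1 held most of the latter sum, with 985.3 ± 409.8 CPM in WT and 278.3 ± 168.1 CPM in FI3KO (SD, n = 6 each). Over all libraries 3 of these 8 markers were lower in FI3KO, 1 was higher and 4 were not called, and the one higher was Dcn, at 27.0 ± 11.6 CPM in WT and 69.4 ± 14.2 CPM in FI3KO (log2 fold change 1.36, adjusted p = 0.0012 in edgeR). In the sums of both lists the replicates 3 to 6 held the highest WT and the lowest FI3KO values. The 5 endothelial markers summed to 21.6 to 43.8 CPM in WT replicates 3 to 6, 27.4 to 32.1 CPM in WT replicates 1 and 2, 47.7 and 91.1 CPM in FI3KO replicates 1 and 2 and 18.4 to 29.1 CPM in FI3KO replicates 3 to 6. They were thus highest in FI3KO replicates 1 and 2. Of 9 macrophage markers tested, 8 were lower in FI3KO over all libraries (median log2 fold change -1.50). Adipocyte markers had 4 of 10 higher and 1 lower (median 0.20). The 6 epididymal markers summed to at most 0.067 CPM in WT and to 1.50 and 1.64 CPM in FI3KO replicates 1 and 2, and Lcn5, Lcn8 and Defb20 were at 0 in every TRAP library. The part of these cells in the members' differences was not tested.

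**Figure D3:**
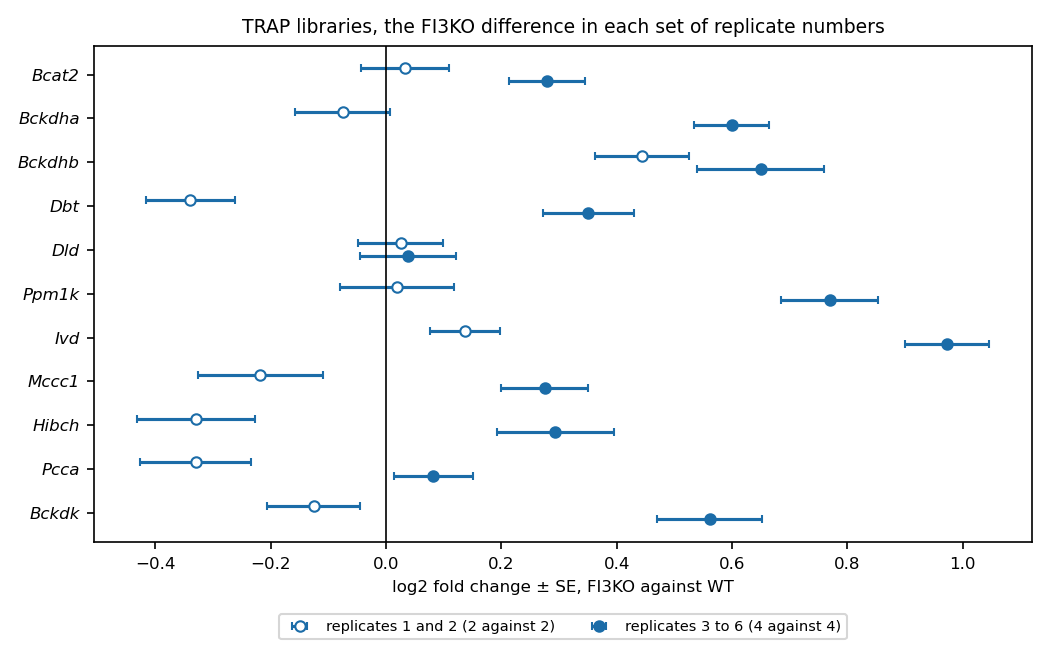
Log2 fold change ± SE (x axis) of FI3KO against WT TRAP for the 10 members and Bckdk (y axis), from replicates 1 and 2 alone (open points, 2 against 2 libraries) and from replicates 3 to 6 alone (filled points, 4 against 4). Ivd, Ppm1k and Bckdha are at 0.97, 0.77 and 0.60 in replicates 3 to 6 and at 0.14, 0.02 and -0.07 in replicates 1 and 2, whereas Bckdhb is above 0 in both sets and Dld near 0 in both.

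Of 20 other pathway genes, 8 were higher and 3 lower in FI3KO (median log2 fold change 0.17). Mccc2, the partner subunit of Mccc1 in the leucine branch, rose from 81.0 ± 9.97 to 114.4 ± 10.9 CPM (log2 fold change 0.50, adjusted p = 0.0010 in edgeR, SD for n = 6 each). Echs1, an enoyl-CoA hydratase that also acts in fatty acid oxidation, rose by 0.52, Acad8 by 0.43 and Pccb by 0.37 on the log2 scale (adjusted p = 0.0011, 0.00027 and 0.012 in edgeR). In replicates 3 to 6 the log2 fold change was 0.69 for Mccc2, 0.70 for Echs1, 0.52 for Acad8 and 0.60 for Pccb, and in replicates 1 and 2 it was 0.14, 0.18, 0.24 and -0.07, with none of these called there. The difference between the sets was called for each of these genes in edgeR (interaction 0.55, 0.53, 0.28 and 0.68). For Mccc2, Echs1 and Acad8 all 6 FI3KO libraries were above all 6 WT libraries. Abat was lower, from 116.4 ± 32.3 to 71.2 ± 16.1 CPM (log2 fold change -0.71, adjusted p = 0.0096 in edgeR, SD for n = 6 each). It was at -0.44 in replicates 3 to 6 and -1.12 in replicates 1 and 2, a difference between sets that missed the threshold (adjusted p = 0.086 in edgeR). Over the list of 20, 12 were higher and 3 lower in replicates 3 to 6, and 0 higher and 1 lower in replicates 1 and 2. Of 14 TCA cycle genes, 6 rose and 0 fell (median 0.19), 10 rose and 1 fell in replicates 3 to 6 and 0 were called in replicates 1 and 2, and with all libraries none of the 4 regulators was called in edgeR at an adjusted p of at most 0.05, with log2 fold changes of -0.27 for Klf15, 0.41 for Ppargc1a, -0.11 for Pparg and 0.07 for Esrra. In replicates 3 to 6, 1 of the 4, Ppargc1a, was called higher (median of the list 0.11), and in replicates 1 and 2, 0 were called (median -0.32).

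The level of each member was next compared between genes in the WT groups, in TPM, which accounts for transcript length. In WT SVF-derived adipocytes Bcat2 was highest (364.9 ± 7.19 TPM, SD, n = 3), followed by Bckdha (229.2 ± 8.16) and Ivd (173.4 ± 6.11), and the ranges of these genes did not overlap. Pcca (121.7 ± 1.91), Mccc1 (118.8 ± 2.40) and Dld (114.4 ± 7.12) followed with ranges that overlapped from each to the next, as did those of Hibch (86.8 ± 3.00), Dbt (80.1 ± 7.28) and Bckdhb (66.7 ± 5.47). Ppm1k was lowest at 11.7 ± 1.62 TPM. In FI3OE, Bcat2 (163.9 ± 16.3 TPM, SD, n = 3) lay within reach of Bckdha (158.8 ± 4.69), so that it no longer stood apart from the other members.

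In WT TRAP, Ivd came first at 262.8 ± 53.5 TPM (SD, n = 6), with a range that overlapped that of Bcat2 (204.5 ± 11.4), which in turn overlapped that of Bckdha (179.8 ± 20.7). Pcca (114.5 ± 10.5), Dld (112.1 ± 6.41), Mccc1 (91.4 ± 10.3), Hibch (91.4 ± 14.7), Dbt (70.4 ± 15.3) and Bckdhb (70.2 ± 7.73) followed. The range of Pcca lay below that of Bckdha, and from Pcca to Bckdhb only Dld and Mccc1 were neighbours without overlap. Ppm1k was again lowest, at 8.35 ± 1.36 TPM. In FI3KO the range of Ivd (404.3 ± 67.6 TPM, SD, n = 6) was above that of every other member. These levels are sums over transcripts. Ivd-207, not annotated as protein-coding, held a mean of 44.9% of the Ivd TPM in WT SVF, 54.9% in WT TRAP and 57.1% in FI3KO. Ivd-201, the only protein-coding transcript of Ivd, had a mean of 78.2 TPM in WT TRAP, below Bcat2-201 (108.1) and Bckdha-201 (157.9). Its mean in FI3KO was 119.2 TPM, with Bcat2-201 at 111.4, Bcat2-202 at 89.9 and Bckdha-201 at 191.4.

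**Figure D4:**
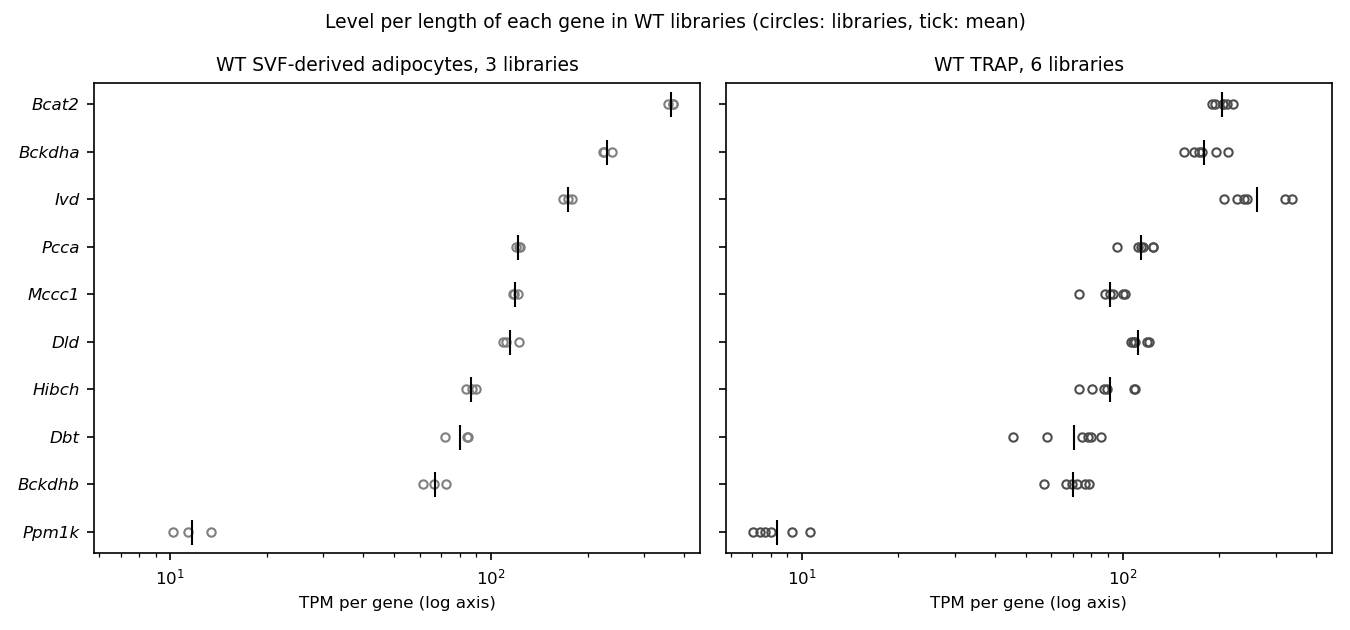
TPM per gene (x axis, log scale) of the 10 members (y axis) in the 3 WT SVF-derived libraries (left) and the 6 WT TRAP libraries (right), where circles are libraries and ticks are means. Bcat2 leads on the left at 364.9 TPM and Ivd on the right at 262.8 TPM, and Ppm1k is lowest in both, at 11.7 and 8.35 TPM. TPM is summed over all transcripts, and Ivd-207, not annotated as protein-coding, held a mean of 54.9% of the Ivd TPM in WT TRAP.

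Scaled over all 18 libraries, 6 members were higher and 1 lower in WT TRAP than in WT SVF-derived adipocytes, beside 38.1% of 16454 genes called higher and 42.1% called lower in edgeR. Depot, RNA fraction, diet, culture and the IRF3-2D allele differ together between these groups and cannot be told apart, and the SVF cultures held more macrophage and fibroblast RNA, as given above. Bcat2 was lower in TRAP, at 132.5 ± 8.10 CPM (SD, n = 6) against 191.7 ± 1.62 CPM (n = 3), with an edgeR log2 fold change of -0.55 (adjusted p = 7.48e-06). Ivd (0.89), Dld (0.76), Hibch (0.57), Bckdhb (0.49), Dbt (0.39) and Pcca (0.28) were higher on the log2 scale, with adjusted p from 6.13e-07 for Dld to 0.019 for Pcca in edgeR. Ppm1k (0.30), Bckdha (-0.07) and Mccc1 (0.02) were not called, at adjusted p of 0.070, 0.54 and 0.83. Pcca was not called without WT SVF replicate 1 or 2 (0.28 and 0.27), and Ppm1k was called without WT TRAP replicate 3 or 6 (0.38 and 0.35). Scaling by library totals moved the median of all genes from -0.07 to -0.53 and left 2 members higher (Ivd and Dld) and 3 lower, beside 23.5% of genes higher and 57.4% lower.

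Other genes of the pathway were higher in TRAP more often than the members, with 16 of 20 called higher and 0 lower (median log2 fold change 0.87), a difference between lists that was not tested. The largest was Abat, at 130.6 ± 36.5 CPM in WT TRAP (SD, n = 6) against 13.9 ± 0.309 CPM (n = 3), a log2 fold change of 3.22. Mcee (1.70), Oxct1 (1.44), Bcat1 (1.25), Mccc2 (1.21), Hibadh (1.19) and Acat1 (1.10) followed, all with adjusted p of at most 0.05 in edgeR. Bckdk (0.12, adjusted p = 0.40) and Slc25a44 (-0.17, adjusted p = 0.11) were not called.

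Transcripts within the members were then compared. For 7 members the annotation holds a transcript that retains an intron. The share of the gene's TPM on such transcripts was higher in every WT SVF-derived library than in every WT TRAP library for 5 of the 7, Bcat2, Dld, Mccc1, Hibch and Pcca, and lower for 0. The same held for 56.2% of 7579 genes with a retained-intron transcript. TRAP captures ribosome-bound RNA, whereas the SVF cultures gave total RNA. For Dld the share was 24.0, 30.8 and 33.8% in WT SVF-derived adipocytes and 0.375 to 10.2% in WT TRAP. For Mccc1 it was 13.5 to 17.6% against 0.679 to 2.14%, and for Hibch 9.40 to 15.2% against 0.0679 to 1.98%. The mean share of Dld was 27.4% in FI3OE and 29.5% in WT SVF-derived adipocytes. Dbt and Ivd overlapped between the WT groups, at 0 to 21.1% against 0 to 18.5% and at 8.66 to 12.4% against 0.138 to 12.2%.

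**Figure D5:**
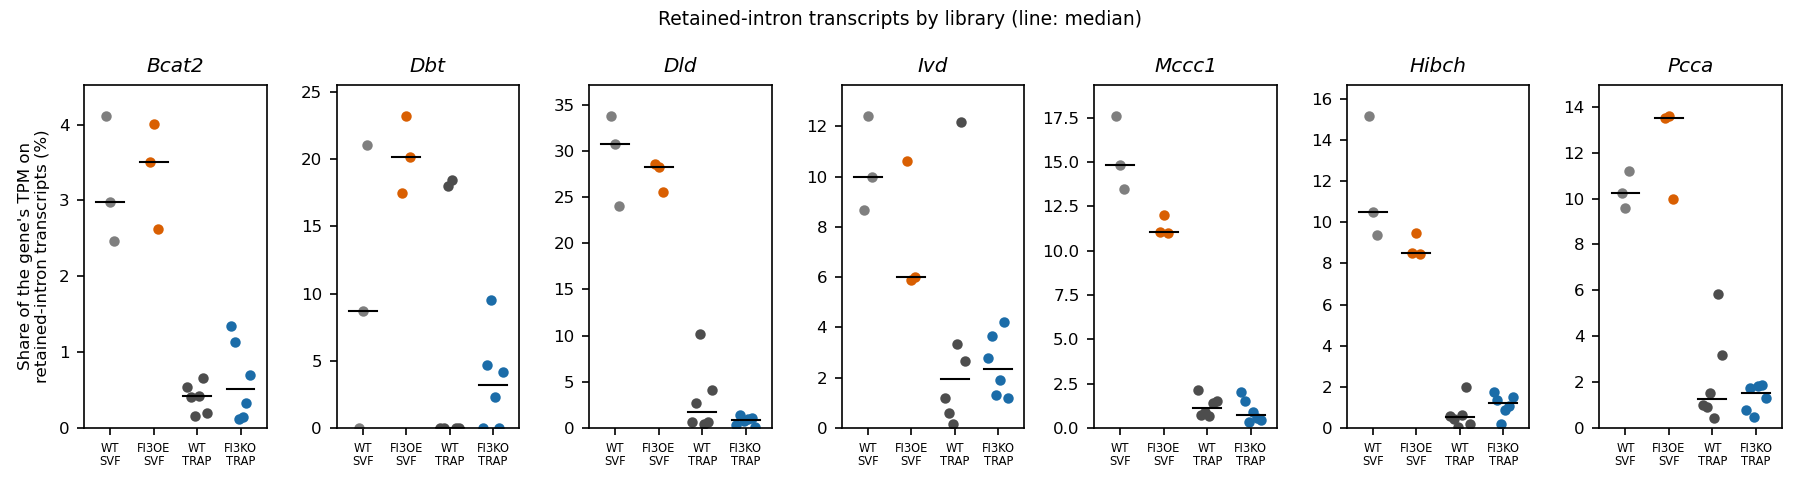
Share of each gene's TPM on retained-intron transcripts (y axis, percent, own scale in each panel) in every library, by group (x axis), for the 7 members with such a transcript, where lines are medians. The SVF-derived libraries lie above the TRAP libraries for Bcat2, Dld, Mccc1, Hibch and Pcca, with median shares for Dld of 30.8% in WT SVF and 1.67% in WT TRAP.

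Estimates for single transcripts were not stable for every member. Reads of Bckdhb were divided between the protein-coding transcripts Bckdhb-201 and Bckdhb-206 in shares that ran from 0 to 58.8% and from 33.9 to 91.6% among WT TRAP libraries, so only the sum over the gene was used. Bcat2-204, annotated as a target of nonsense-mediated decay, had 0 reads in all 6 SVF-derived libraries, 0 to 226.9 reads in WT TRAP and 139.0 to 392.5 reads in FI3KO TRAP.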

How the data were processed

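RNA-seq was available for 18 libraries, grouped and numbered as the labels give. The authors deposited, library by library, Salmon 1.4.0 output per transcript (GRCm38, GENCODE M24): estimated counts (not normalized, not whole numbers), TPM and effective length in bases, made after ribosomal RNA depletion, trimming with fastp and bias correction. The kit marks no strand, so reads of overlapping genes on opposite strands cannot be told apart.

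Here the estimated counts were summed per gene with GENCODE M21 (99.3% of 118733 transcripts matched by identifier; unmatched transcripts held 0.37 to 1.08% of reads and were kept as features of their own) and rounded. Each experiment was fitted separately in edgeR 4.0.16 (R 4.3.3) with filterByExpr, TMM and the quasi-likelihood test without covariates, with Benjamini-Hochberg adjustment over all genes tested. A gene was called at an adjusted p of at most 0.05. The SE is the log2 fold change divided by the square root of the F statistic. CPM were TMM-scaled within an experiment, except in the WT comparison. The deposited TPM, summed per gene, gave levels between genes and transcript shares. Ratios were compared by exact permutation, enumerated in Python 3.11.15 with numpy 2.4.6. With a replicate block, the signs of same-numbered differences were flipped instead. The procedure was tested on simulated data. Counts of 3 reads were taken as the limit of detection, and it covers counting error only.

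Named genes were the 10 members, Bckdk, Bcat1, Slc25a44 and in each comparison the 6 other pathway genes with the largest absolute log2 fold change among those called. A gene that this rule names is not reported here. The members, lists, marker sets and the split of TRAP replicates 1 and 2 from 3 to 6 were chosen with earlier results of these data known. Klf15, Ppargc1a, Pparg and Esrra, the list of regulators, and the markers Col1a1 and Dcn were named after their values were seen. Alternatives were DESeq2 1.42.0 and its size factors, library totals, other filters, a length offset, robust dispersion, all 18 libraries in 1 fit, a replicate block, single libraries left out and sets of TRAP replicates. WT TRAP replicates 1 and 2 differed by more than sampling noise and were counted as separate libraries, with their sum as an alternative.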

Additional observations from a re-analysis of the deposited data

Results flagged for a closer look

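For 7 members and for Bckdk, the FI3KO difference differed between TRAP replicates 3 to 6 and TRAP replicates 1 and 2 by the interaction term in edgeR. The log2 difference (replicates 3 to 6 minus replicates 1 and 2) was 0.84 for Ivd, 0.75 for Ppm1k, 0.69 for Dbt, 0.69 for Bckdk, 0.68 for Bckdha, 0.63 for Hibch, 0.50 for Mccc1 and 0.42 for Pcca, with adjusted p from 0.00025 for Ivd to 0.029 for Pcca in edgeR. It was also 0.55 for Mccc2, 0.53 for Echs1, 0.28 for Acad8 and 0.68 for Pccb, and -1.69 for Bcat1, which was at a log2 fold change of -1.45 in replicates 3 to 6 and 0.24 in replicates 1 and 2 (adjusted p from 5.51e-05 for Bcat1 to 0.041 for Acad8 in edgeR). In each of the first 8 genes WT replicates 1 and 2 had a higher mean than WT replicates 3 to 6, and FI3KO replicates 1 and 2 had a lower mean than FI3KO replicates 3 to 6. The labels give no batch for these sets, which were told apart by the libraries themselves, and what they share was not tested. The p-values are therefore not those of a split set in advance. Among 24 sets of 6 values checked (a gene in a TRAP group), none held a library that stood apart by Dixon's criterion, where chance gives about 1 in 20. This criterion looks for 1 extreme library. Replicates 1 and 2 can hide each other where they lie together, so it does not bear on the split.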

How the results depend on the processing

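Directions and calls of the members and named genes were kept in most alternatives, in 272 of 304 values for FI3OE, 450 of 494 for FI3KO and 328 of 361 for WT TRAP against WT SVF. For the changes given here the cause was not tested. In FI3OE, 5961 genes were called over all genes, 3800 with a length offset, 1572 with all 18 libraries in 1 fit, 583 with the fold cutoff and 4949 to 5197 with 1 library left out. The 8 members called lower became 6 with a length offset and 3 in the fit of 18 libraries. With 1 library left out they were 8 to 9. Slc25a44 changed sign with library totals (-0.0047) and with 1 library left out (-0.013 to 0.034).

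In FI3KO TRAP, 5095 genes were called, 901 with the fold cutoff, 500 in replicates 1 and 2 and 3962 to 5343 with 1 library left out. The 5 members called higher became 8 in replicates 3 to 6, 0 in replicates 1 and 2 and 4 to 5 with 1 library left out. In replicates 1 and 2 the sign changed for Bckdha (-0.075), Dbt (-0.34), Mccc1 (-0.22), Hibch (-0.33), Bckdk (-0.13), Bcat1 (0.24), Slc25a44 (-0.14) and Pccb (-0.071), and in replicates 3 to 6 for Pcca (0.082). Dbt changed sign with the length offset (-0.088) and Dld with library totals (-0.015) and with 1 library left out (-0.013 to 0.059). The difference between replicate sets, whose alternatives were chosen after seeing the data, was called for 3613 genes and 7 members, and for 2033 to 3874 genes and 4 to 7 members with 1 library left out. That of Dld changed sign with the length offset (-0.023) and with 1 library left out (-0.048 to 0.089).

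Between the WT groups 13195 genes were called, 7719 with the fold cutoff and 12443 to 13211 with 1 library left out, and the 6 members higher became 2 with library totals and 5 to 7 with 1 library left out. Signs changed with library totals for Dbt (-0.068), Ppm1k (-0.16), Mccc1 (-0.44), Pcca (-0.18) and Bckdk (-0.34), with the length offset for Bckdha (0.085), Ppm1k (-0.042) and Bckdk (-0.13), with at least 10 counts in every library for Mccc1 (-0.16) and Bckdk (-0.063), and with WT TRAP replicates 3 to 6 for Mccc1 (-0.072) and Bckdk (-0.011). Mccc1 also changed sign with DESeq2 size factors (-0.013), the DESeq2 Wald test (-0.0039), WT TRAP replicates 1 and 2 summed (-0.015) and 1 library left out (-0.019 to 0.076).

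Samples of the same number did not deviate together (correlations -0.05 to 0.02 in SVF and -0.29 to 0.10 in TRAP), so the numbers were not taken as pairs. With a replicate block, 3632 genes and 3 members (Bckdhb, Ivd and Ppm1k) were called in TRAP, with Bcat2 and Bckdha at an adjusted p of 0.063 in edgeR and the calls of Bckdk (0.10), Bcat1 (0.059) and Pccb (0.058) also lost, and 8 members in SVF. The TRAP Ppm1k to Bckdk ratio differed by 0.18 with the replicate block and by 0.11 to 0.23 with 1 library left out. For the block, the signs of same-numbered differences were flipped (exact sign-flip p = 0.031). That p is the smallest the flip can give with these libraries. It rests on pairing by number, which was not adopted here, so no conclusion is drawn from it. For the lowest genes and transcripts, 3 reads is the least taken as detected. The TRAP replicates 1 and 2 give only 2 against 2 libraries, and how far this lowers their counts was not tested.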
